A study of Rattus norvegicus with 2 samples.

Results

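The cytosolic ribosomal protein genes of rat were followed in cultured oligodendrocyte precursor cells (OPCs) with and without amyloid-β (Aβ). They were taken by symbol: a name that starts with Rps, Rpl or Rplp, then a number and at most a short letter or digit suffix, with the S6 kinase genes left out. This rule found 83 of the 17049 genes in the expression table, and 82 of them reached 1 TPM (a unit of reads per length of transcript, scaled to the same sum in each library) in at least 1 of the libraries. Of the 83, 33 belong to the small subunit, 47 to the large subunit and 3 to the P stalk. OPCs are the dividing glial cells of the brain that form oligodendrocytes. They came from brain of adult wild-type (WT) rats; 1 library was made from cells labelled Aβ, exposed at 1 µM for 2 days, and 1 from cells labelled DMSO, the solvent control. The treatment text of both samples names the Aβ exposure, so the control is known from its treatment label alone. With 1 library a group there is no replicate check, so differences carry no p-value. Where 2 values stand side by side below, Aβ comes first and the control second.

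A ribosome joins a small subunit, which reads the mRNA, to a large subunit, which makes the peptide bond and lets the nascent chain out through an exit tunnel. Each subunit holds ribosomal RNA and about equal numbers of copies of each of its proteins, so that their mRNAs are among the most abundant of a growing cell. These mRNAs carry a 5′ terminal oligopyrimidine (TOP) tract, a C followed by a run of C and T bases at the transcript start, through which mTORC1 and Larp1 control their translation. In the oligodendrocyte lineage, protein synthesis supports both division of the precursors and the later building of myelin.

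The libraries held 15704932 (Aβ) and 15663751 (control) estimated reads. Of 8 OPC markers 7 reached 1 TPM in at least 1 library, with a summed level of 2661 and 2871 TPM, while Gpr17 was at 0.13 TPM in both and Sox10 at 0.84 and 1.22 TPM. The sum was carried by Olig1, Ptprz1 and Olig2, whose read ratios were 0.908 (0.893 to 0.923), 0.952 (0.941 to 0.963) and 0.890 (0.864 to 0.917), whereas Cspg4, at 1.78 (1.54 to 2.05), and C1ql1, at 1.95 (1.32 to 2.91), were higher with Aβ on lower levels. A read ratio is Aβ over control in reads per library total, with its 95% counting interval. The OPC marker Pdgfra was at 0.931 (0.867 to 0.999). Astrocyte markers (6 of 6 present, 1790 and 1799 TPM) and microglia markers (6 of 7, 211 and 252 TPM) were also measured. Of the astrocyte markers 2 had intervals above 1 and 3 below. Of the microglia markers 0 lay above and 2 below, C1qa at 0.672 (0.589 to 0.765) and Aif1 at 0.778 (0.635 to 0.953). Over all genes at 1 TPM or more 12% lay above and 12.5% below. Neuron markers summed to 27.9 and 22.3 TPM, mature oligodendrocyte markers to 39 and 40.7 TPM, and endothelial, fibroblast with pericyte, and Schwann cell markers to 4.25 TPM or less. No marker found in the table was at 0 reads in both libraries. The part of these cell types in the values below was not tested. In bulk RNA, fewer cells of a type and less RNA per cell cannot be told apart.

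Promoter entries were found in RefSeq's table of rat build GRCr8 for 66 of the 83 members, 62 by gene number and 4 by symbol. A TOP-like run, a C followed by 4 or more bases that are each C or T on the transcript strand, began within 10 bases of the annotated start in 48 of these 66 (72.7%), against 28.9% of 33469 promoters. Exactly at the annotated start it was found in 23 (34.8%), against 2.63% of all. The 30 bases around the start, 15 before it and 15 from it on, are shown for the 8 members with whole reads and the highest read ratios, for the 6 of the 8 lowest that had an entry used here, for Rplp0 and Rplp1 of the P stalk, and for Rpl22 beside its paralogue Rpl22l1. Ratios were ranked among members with 100 or more reads. Capitals mark the run from the qualifying C nearest to the annotated start, and all other bases are in lower case. C and T bases directly before that C were not counted, also for runs exactly at the annotated start. A marked run can therefore be the end of a longer tract, as in Rps24 and Rpl35.
Rpl37a: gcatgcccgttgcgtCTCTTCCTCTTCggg
Rpl22l1: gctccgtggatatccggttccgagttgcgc
Rpl35: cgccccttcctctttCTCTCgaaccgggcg
Rpl28: ccccgcccctagtgtCTTTCTTTCCgtctc
Rpl31: ccacaatccctcgcgCCTTTCCTTTCCaac
Rps28: gcatcccctgctcacgtgaCTCCTCTCCgc
Rpl7a: ctctcctccagccgagcaagatggtgagtg
Rpl41: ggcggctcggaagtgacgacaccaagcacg
Rpl10l: tttggtctccattttgctgctggcggtgag
Rpl7l1: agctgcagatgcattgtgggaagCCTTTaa
Rps27l: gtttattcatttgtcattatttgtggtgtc
Rps24: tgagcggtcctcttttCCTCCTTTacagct
Rpl10a: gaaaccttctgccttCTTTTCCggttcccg
Rps27: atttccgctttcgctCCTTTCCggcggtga
Rplp0: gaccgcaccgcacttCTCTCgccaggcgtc
Rplp1: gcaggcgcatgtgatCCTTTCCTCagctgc
Rpl22: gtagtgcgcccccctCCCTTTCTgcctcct

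In GRCr8, with the strand in brackets, the windows of the high group are chr9:81748076-81748105 (+) for Rpl37a, chr2:113683181-113683210 (+) for Rpl22l1, chr3:43165907-43165936 (−) for Rpl35 and chr1:78083518-78083547 (−) for Rpl28, and chr9:49143096-49143125 (+) for Rpl31, chr7:15311319-15311348 (−) for Rps28, chr3:30637121-30637150 (+) for Rpl7a and chr7:1563483-1563512 (−) for Rpl41. Those of the low group are chr6:90281968-90281997 (−) for Rpl10l, chr9:21695703-21695732 (+) for Rpl7l1, chr8:76443643-76443672 (+) for Rps27l, chr16:96502-96531 (+) for Rps24, chr20:6390518-6390547 (+) for Rpl10a and chr2:177964592-177964621 (−) for Rps27. The remaining windows are chr12:46718376-46718405 (−) for Rplp0, chr8:71290858-71290887 (−) for Rplp1 and chr5:168117946-168117975 (+) for Rpl22. A run was found in 5 of the 8 high members and in 4 of the 6 low ones. It was not found in Rpl22l1, Rpl7a and Rpl41 of the high group, nor in Rpl10l and Rps27l of the low group. Among members above 100 TPM on average, the median read ratio, Aβ over control, was 1.026 for the 46 with a run and 1.024 for the 16 without. The median TPM ratios were 0.993 and 0.996. Further letters were searched on both strands of the whole promoter entries (250 bases before the start and 50 from it on), chosen after the values were seen. The ETS core CCGGAAG was in 22 of 66 members (33.3%) and in 8.75% of all promoters, the YY1 core AAGATGGC in 4 (6.06%) against 3.17%, and the E-box CACGTG in 5 (7.58%) against 6.42%.

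Ribosomal protein genes made up much of both transcriptomes. They summed to 18.7% of all TPM with Aβ and 18.9% in the control, and 59 of the 100 genes with the highest TPM were members in each library. By reads, which are not corrected for length, they held 3.89% (exact binomial 95% interval 3.88 to 3.90) of the Aβ library and 3.80% (3.79 to 3.81) of the control library, where the interval covers counting error only. The share of the members was thus slightly higher with Aβ by reads and slightly lower by TPM.

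Most members lay within a narrow band of levels. Of 79 members with 200 or more reads in the libraries together, 70 were at 1000 TPM or more in both, and 23 at 3000 TPM or more. In the control library their median level was 2363 TPM, with quartiles of 1580 and 3116 TPM. The most abundant by TPM was Rps2, a small subunit protein at the mRNA entry, at 6089 and 6236 TPM. Rps29, a zinc-binding protein of the small subunit, followed at 5341 and 5502 TPM, on read estimates that were not whole. The length behind its TPM was only 44.9 and 39.3 bases, against 629 and 616 bases for Rps2. In the large subunit Rpl41, a very short and highly basic protein, was highest at 4731 and 4699 TPM. Rpl37, also on estimates that were not whole, came next at 4529 and 4414 TPM. Rpl21 stood at 4376 and 4499 TPM. The order of levels was nearly the same in both libraries, with Pearson's r = 0.997 between log2 TPM values across the 79 genes, a description of genes that share library and length model and are not replicates.

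**Figure D1:**
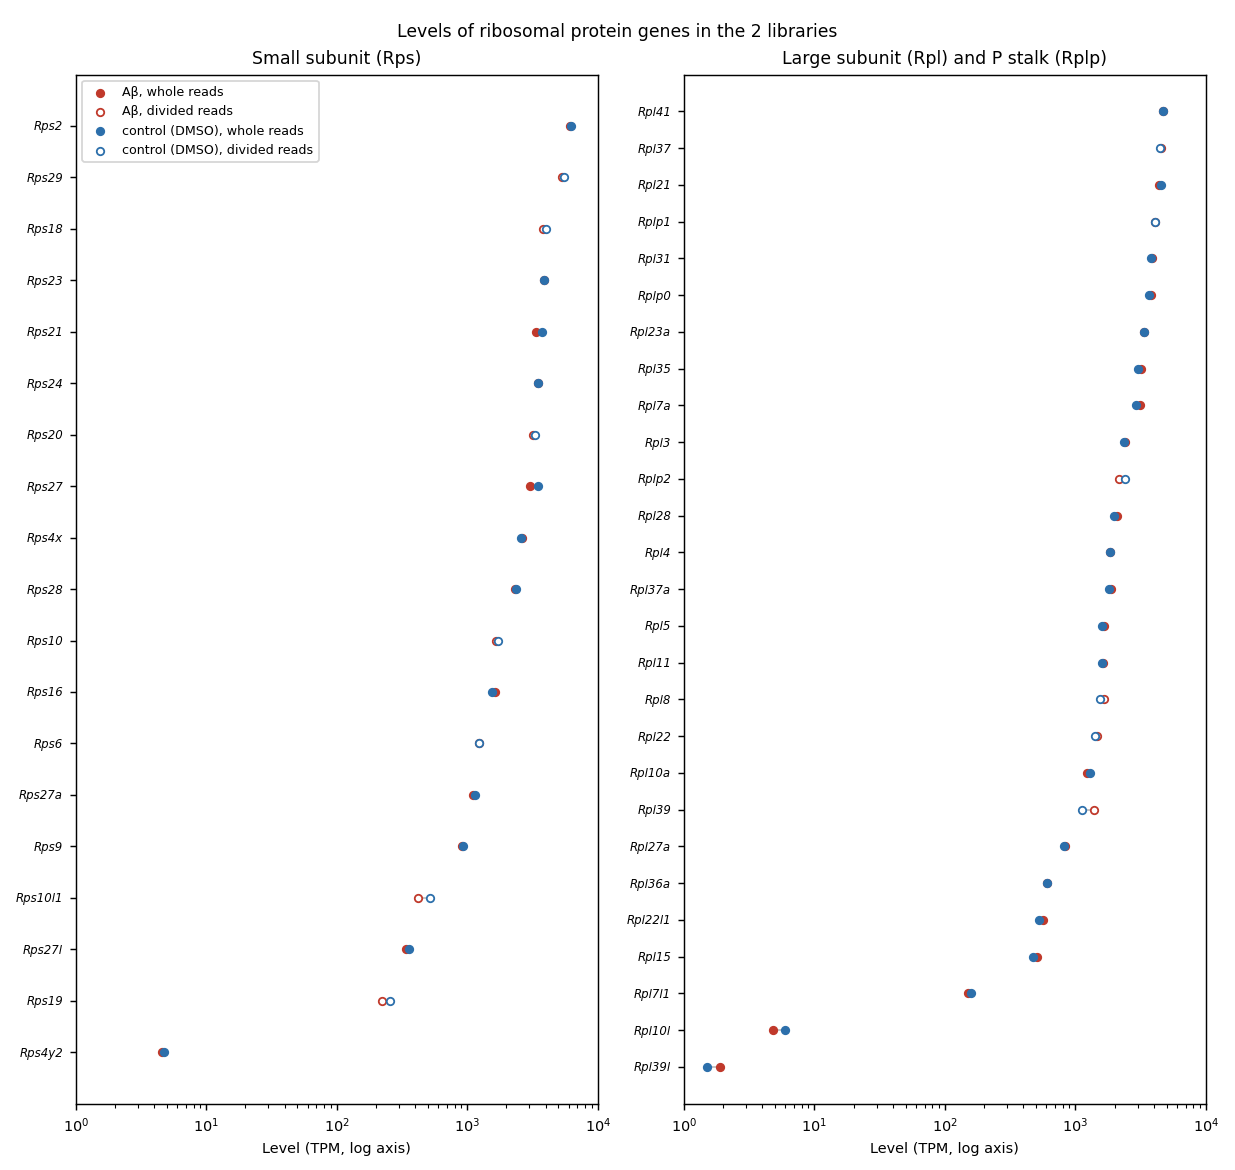
Level of each member named in the text in TPM (log axis) in the Aβ library (red) and the control library (blue), by subunit and ordered by mean level; open circles are members with read estimates that are not whole. Most members lie between 1000 and 6236 TPM and the points of a gene nearly coincide, while the paralogues Rps4y2, Rpl10l and Rpl39l lie below 6 TPM; Rpl3l, with 0 reads with Aβ, is not drawn.

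The members below this band were mostly paralogues. Rpl7l1, which acts in ribosome assembly, was at 151 and 158 TPM. Rps27l, a near copy of Rps27, was at 341 and 359 TPM, against 3054 and 3480 TPM for Rps27 itself. Rpl22l1 was at 566 and 528 TPM against 1452 and 1426 TPM for Rpl22. These paralogues were thus present at a fraction of the level of the gene they are named after. Rps4y2, Rpl10l and Rpl39l were each below 6 TPM, with 30 and 31, 49 and 60, and 4 and 3 reads, and Rpl3l, a muscle form of Rpl3, had 0 and 2 reads. The 0 is compatible with up to 3 reads, or 0.191 per 1000000 reads of the Aβ library. By contrast Rps4x, the X-linked gene that encodes the common S4 protein, was at 2635 and 2573 TPM. Among the other low members Rpl15 was at 511 and 476 TPM, Rpl36a at 610 and 605 TPM and Rpl27a at 837 and 824 TPM.

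For many members the direction of the difference depended on the unit. Of 82 members at 1 TPM or more, 0 differed 2-fold by TPM. Only 0.994% of 12980 genes did, so this does not set the members apart. By reads 4 of the 82 differed 1.2-fold or more. These were Rpl39 at 1.41 (1.22 to 1.63) and Rps10l1 at 0.831 (0.768 to 0.899), both with divided reads, and Rpl10l and Rpl39l on few reads. Of the 12980 genes 2446 differed as much. By reads 59 of the 82 were higher with Aβ and by TPM 34, against 50.5% and 51.7% of these genes. For the 56 with whole read numbers the counts were 42 and 25, against 50.1% and 51.5% of 11227 genes. Read ratios were taken from reads per library total with exact Clopper-Pearson intervals, which compare 2 libraries and cover counting error only. The interval lay above 1 for 31 and below 1 for 4 of the 82, against 12% and 12.5% of genes, and for 21 and 3 of the 56, against 11.5% and 12%. The members thus leaned upward by reads and not by TPM.

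Most of the counting precision lies in the well-read genes. Among 53 members with undivided estimates that reach 1000 reads over both libraries, 41 were higher with Aβ by reads and 12 lower, against 48.7% higher among 5779 such genes. By TPM, 24 of the same 53 were higher, against 50.6% of genes. The median ratio of the 53 was 1.02 by reads and 0.996 by TPM, beside medians of 0.998 and 1.00 for all 5779 genes. The quartiles of the read ratio were 1.01 and 1.05 for these members and 0.951 and 1.05 for the other genes. The members were read more deeply, with 45 of the 53 at 5000 or more reads, against 1233 of the 5779 genes. Their counting error is therefore smaller, and the spreads are not matched for depth.

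The read interval lay above 1 for 21 of the 53 and below 1 for 3, Rpl7l1, Rps27a and Rps2. Over all 5779 genes with as many reads these shares were 14.1% and 16.7%. Such calls grow with read number, and among 1233 genes with 5000 or more reads the shares were 19.8% and 29%, against 18 and 3 of 45 members. Among 164 other genes with an implied effective length under 500 bases they were 14.6% and 6.71%, against 15 and 0 of 39 members. Both sets had 1000 or more reads per gene, but they were not matched for read number beyond that. No member of the 53 differed 1.2-fold by reads, where 4.79% of the genes did.

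TPM divides reads by a length, and that length differed between the libraries. The implied effective length of a transcript, which is the length that turns its reads into FPKM, was larger with Aβ by a median of 13.5 bases over 5576 long and well-covered genes. For long transcripts this is a small share, but most ribosomal protein mRNAs are short. For Rps28 the implied length was 58.5 bases with Aβ and 51.8 bases in the control; its reads were 1410 and 1302, a read ratio of 1.08 (1.001 to 1.17), yet its level was 2307 and 2380 TPM, a ratio of 0.969. Rps21 had a read ratio of 1.00 (0.945 to 1.06) and levels of 3394 and 3758 TPM, a ratio of 0.903. In all, 25 of the 79 members with 200 or more reads were higher with Aβ by reads and lower by TPM, 33 were higher by both and 21 lower by both. How the length was set in each library is not stated in the labels.

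Other short genes differed in the same way between the units. Members with whole reads and an implied length of 100 to 250 bases had a median read ratio of 1.04 and a median TPM ratio of 0.990 (n = 18), and 84 other genes of that length had 1.04 and 0.976. Between 250 and 500 bases the members stood at 1.02 and 0.995 (n = 16) and 241 other genes at 1.03 and 1.00. Between 500 and 1000 bases they stood at 1.02 and 1.02 (n = 11), and 890 other genes at 1.02 and 1.01. Under 100 bases they stood at 1.04 and 0.948 (n = 5) and 9 other genes at 1.05 and 0.955. At 1000 bases or more 3 members stood at 1.01 and 1.01 and 8027 other genes at 0.997 and 1.00. The members' median read ratio was within 0.01 of that of other genes in the 4 classes under 1000 bases and further above it in the longest class. Whole-read members of 500 bases or more had a median log2 TPM ratio of 0.017.

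**Figure D2:**
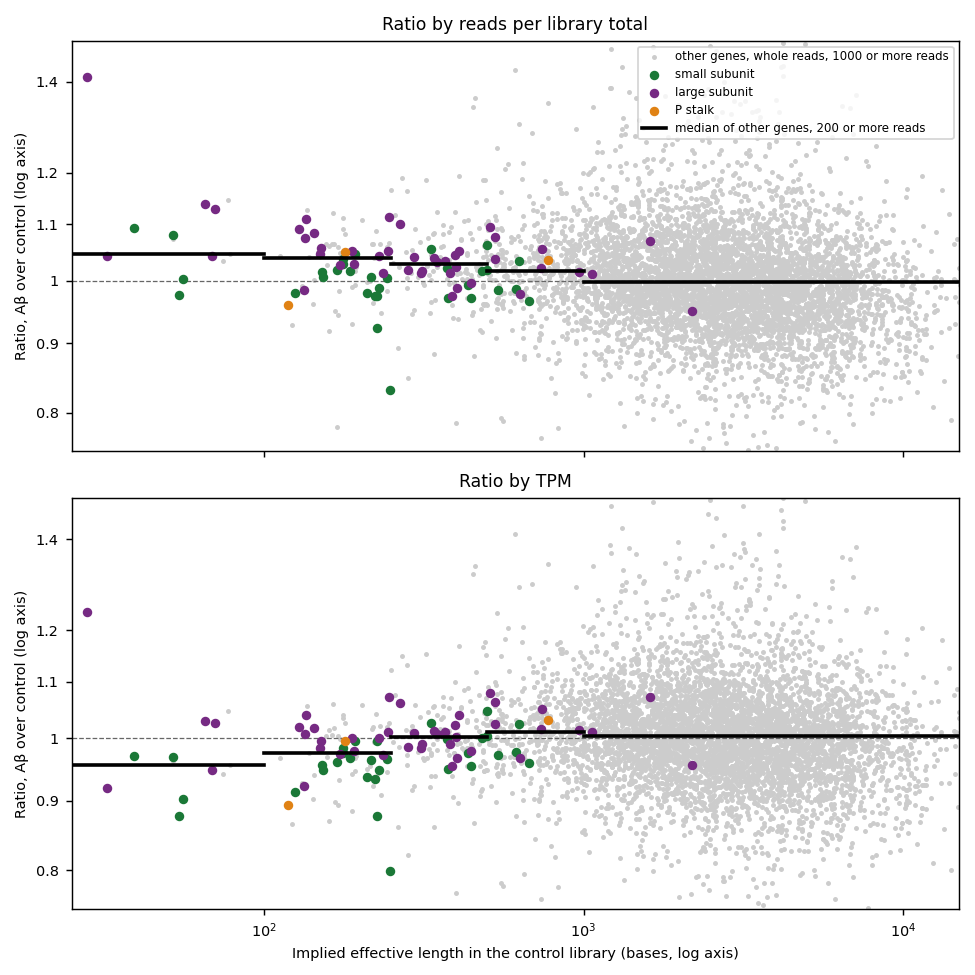
Ratio of Aβ over control (log axis) against implied effective length in the control library (bases, log axis), by reads per library total above and by TPM below; coloured points are members with 200 or more reads, grey points other genes and black lines the medians of other genes per length class. Towards short lengths the medians climb to 1.05 by reads and drop to 0.955 by TPM, and the members follow both; 30 grey points by reads and 29 by TPM lie beyond the axis.

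The large subunit stood slightly above the small subunit in either unit. Of 33 large subunit members with whole reads and 1000 or more reads, 29 were higher with Aβ by reads and 20 by TPM, with median ratios of 1.04 and 1.01. Of 19 small subunit members, 11 were higher by reads and 3 by TPM, with medians of 1.01 and 0.973. The read interval lay above 1 for 15 large and 5 small subunit members, and below 1 for 1 and 2. Over the 5779 genes with as many reads 14.1% lay above and 16.7% below, and 19.8% and 29% at 5000 or more reads. By TPM the small subunit median was below equality and by reads just above it, so a direction for that subunit depends on the unit. The median implied length in the control was 310 bases for the large and 375 bases for the small subunit members. Between 100 and 250 bases the median read ratios were 1.05 (n = 12) and 1.02 (n = 6), between 250 and 500 bases 1.02 (n = 10) and 1.01 (n = 6), and between 500 and 1000 bases 1.03 (n = 6) and 0.985 (n = 4). The difference between subunits has no replicate check.

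**Figure D3:**
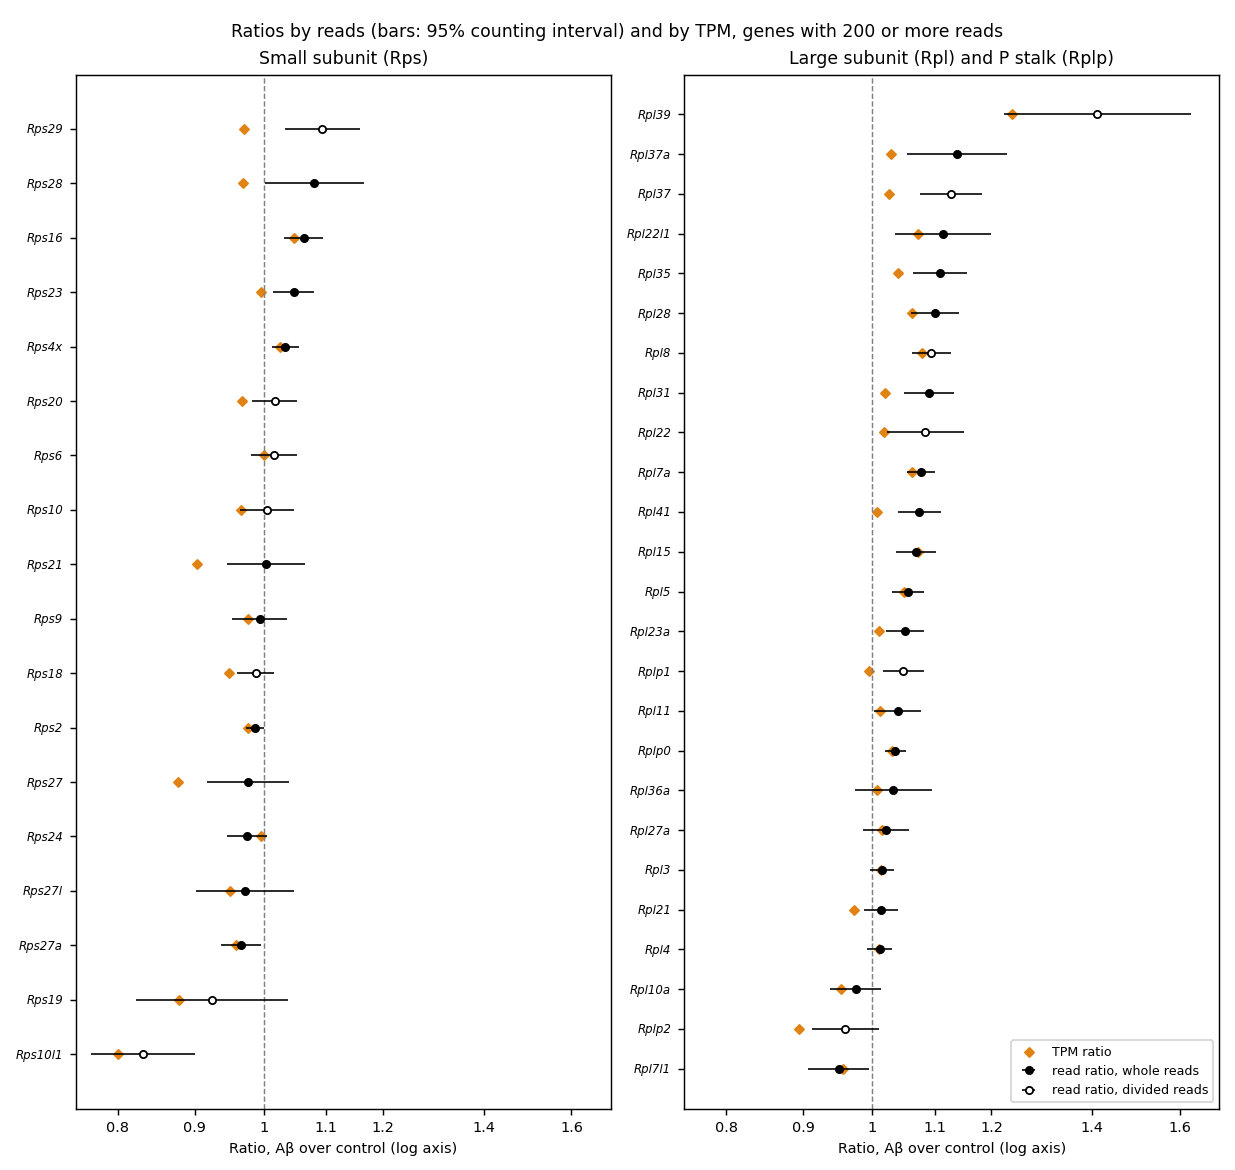
Ratio of Aβ over control (log axis) for each member named in the text with 200 or more reads; circles are read ratios with 95% counting intervals, open where reads were not whole, and diamonds are TPM ratios. Large subunit circles lie mostly right of equality up to Rpl39 at 1.41, small subunit circles lie on both sides, and the diamonds of short genes such as Rps28 and Rps27 lie well left of their circles.

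Among large subunit members with whole reads and 100 or more reads in the libraries together, the highest read ratios belonged to Rpl37a and Rpl22l1. Rpl37a, a zinc-binding protein, had 1428 reads with Aβ and 1251 in the control, a read ratio of 1.14 (1.05 to 1.23), with levels of 1862 and 1809 TPM. Rpl22l1, the paralogue of the RNA-binding Rpl22, had 1536 and 1375 reads, a ratio of 1.11 (1.04 to 1.199). Rpl28 had 6136 and 5561 reads, a ratio of 1.10 (1.06 to 1.14). Rpl7a, which takes part in large subunit assembly, had 17663 and 16350 reads, a ratio of 1.08 (1.05 to 1.10), and levels of 3115 and 2929 TPM. Rpl41 had 7191 and 6672 reads, a ratio of 1.07 (1.04 to 1.11), while its TPM ratio was 1.01. For Rpl37a, Rpl22l1, Rpl28, Rpl7a and Rpl41 the TPM ratio was also above 1.

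Proteins around the exit tunnel form a group that was drawn up after the values were seen, so its counts are a description. Of its 9 measured genes, 3 of them with divided reads, 9 were higher with Aβ by reads and 8 by TPM. The medians were 1.05 and 1.01, with 7 read intervals above 1 and 0 below. In the large subunit as a whole 39 of 46 were higher by reads and 28 by TPM, with 22 intervals above 1 and 1 below. Over all 12980 genes 50.5% were higher by reads and 51.7% by TPM, with 12% above and 12.5% below. The median implied length of the 9 in the control was 228 bases, and 84 other genes of 100 to 250 bases had a median read ratio of 1.04. Rpl35 had 4841 and 4351 reads, a ratio of 1.11 (1.06 to 1.16), and 3165 and 3044 TPM. Rpl31, a neighbour of the tunnel mouth, had 5599 and 5118 reads, a ratio of 1.09 (1.05 to 1.13). Rpl23a, which binds the signal recognition particle, had 9107 and 8640 reads, a ratio of 1.05 (1.02 to 1.08). Rpl4, which lines the tunnel, had 20940 and 20651 reads, a ratio of 1.01 (0.992 to 1.03), so its interval included equality. Rpl5 and Rpl11, which carry the 5S RNA into the subunit and can bind Mdm2 when free of it, had read ratios of 1.06 (1.03 to 1.08) and 1.04 (1.003 to 1.08).

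Rpl39 had the largest ratio of the members with 200 or more reads, and it has divided reads. This small protein lines the exit tunnel. Its estimates were 470.63 and 332.65 reads, a read ratio of 1.41 (1.22 to 1.63), and at 1392 and 1124 TPM, a ratio of 1.24. Its implied effective length was 32.3 bases with Aβ and 28.0 bases in the control, the shortest of these members. In the authors' deposited table of gene ontology terms for genes higher with Aβ, Rpl39 was the only member among the 246 genes listed under a term. It was listed under 5 terms, on humoral and antimicrobial responses, and 0 of the 282 terms had ribosome, rRNA or translation in its name.

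The P stalk recruits elongation factors to the ribosome and is built from Rplp0 with dimers of Rplp1 and Rplp2. Rplp0, often used as a reference gene, had 31183 reads with Aβ and 30018 in the control, a read ratio of 1.04 (1.02 to 1.05), at 3797 and 3684 TPM. Rplp1, with divided reads, was at 4073 and 4091 TPM and a read ratio of 1.05 (1.02 to 1.08). Rplp2, also divided, was at 2146 and 2401 TPM and a read ratio of 0.960 (0.912 to 1.01). Rplp0 was thus higher in both units, Rplp1 only by reads, and Rplp2 was lower by TPM with a read interval that included equality.

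In the small subunit the read ratios lay on both sides of 1. Rps28, at the mRNA exit, had the highest read ratio of its members with whole reads. Rps16, which reaches into the decoding site, had 8667 and 8137 reads, a ratio of 1.06 (1.03 to 1.10), and was higher by TPM too, at 1622 and 1550 TPM. Rps23, a decoding centre protein, had 8341 and 7950 reads, a ratio of 1.05 (1.01 to 1.08), at 3888 and 3903 TPM. At the other end stood Rps27a, which is made as a fusion with ubiquitin, with 7945 and 8206 reads, a ratio of 0.966 (0.936 to 0.996), and 1102 and 1150 TPM. Rps2 had 40066 and 40536 reads, a ratio of 0.986 (0.972 to 0.9995). Rps24 (0.974, 0.945 to 1.00) and Rps27 (0.976, 0.916 to 1.04) had intervals that included equality. Rps6, the substrate of the S6 kinases, with divided reads, was at 1225 and 1224 TPM and a read ratio of 1.02 (0.981 to 1.05). A group of 14 proteins of the small subunit head was also drawn up after the values were seen, and 7 have divided reads. Of the 14, 9 were higher by reads and 2 by TPM, with medians of 1.01 and 0.962. In the small subunit as a whole 18 of 33 were higher by reads and 5 by TPM, with medians of 1.00 and 0.966. Over all 12980 genes the shares were 50.5% and 51.7%.

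In the large subunit, the lowest read ratios among members with whole and 100 or more reads were those of Rpl10l, on 49 and 60 reads (0.815, 0.547 to 1.21), Rpl7l1 and Rpl10a. Rpl7l1 had 3465 and 3637 reads, a ratio of 0.950 (0.907 to 0.996), and Rpl10a had 5202 and 5322 reads, a ratio of 0.975 (0.938 to 1.01). In the small subunit Rps27l had 1393 and 1430 reads, a ratio of 0.972 (0.902 to 1.05). Rpl22l1, Rpl7l1 and Rps27l, the well-covered paralogues with whole reads, therefore went different ways, and of these Rps27l had an interval that included equality.

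Divided reads, that is estimates that are not whole numbers in at least 1 library, were held by 26 of the 83 members, against 13.5% of all genes at 1 TPM or more. A divided estimate can hold part of the reads of a near-identical copy. Of the 26 members, 17 were higher by reads and 9 by TPM, with medians of 1.02 and 0.973, and the interval lay above 1 for 10 and below 1 for 1. The background over 1753 genes with divided reads was 15.3% above, 15.7% below and 52.8% higher by reads. Abundant members of this kind were Rps29 (read ratio 1.09, 1.03 to 1.16), Rpl37 (1.13, 1.08 to 1.18), Rps18 (0.988, 0.960 to 1.02) and Rps20 (1.02, 0.982 to 1.05). Rpl8, a protein near the peptidyl transferase centre, had 9157.72 and 8345.62 reads, a ratio of 1.09 (1.06 to 1.13).

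Some members were better read together with another row. Rps10l1 held 1143.06 and 1372.16 reads, a ratio of 0.831 (0.768 to 0.899), and Rps10 at 4460.94 and 4428.84 reads, a ratio of 1.00 (0.963 to 1.05). Their sum was 5604 and 5801 reads, a ratio of 0.964 (0.929 to 0.9997). The row named Rps19 held only 563.97 and 608.64 reads, while most reads of that gene stood in a row named gene-Rps19-2 with 5846.03 and 5483.36. The sum of 6410 and 6092 reads gave 1.05 (1.01 to 1.09), so the row Rps19 alone, at 0.924 (0.822 to 1.04), lay on the other side of 1. Rps9 had 4278 and 4295 reads, and a row named LOC103689992, called Rps9 in the RefSeq table, had exactly the same values. Rps9 is therefore uncertain although its reads are whole.

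Ribosomal proteins that the symbol rule misses lay within the range of the members. Rpsa, a small subunit protein also known as the laminin receptor, was at 2839 and 2863 TPM (read ratio 0.997, 0.979 to 1.02). Rack1, a signalling scaffold on the small subunit head, was at 1452 and 1497 TPM (0.973, 0.950 to 0.996). Fau, which encodes a ubiquitin-like protein fused to S30 and has divided reads, was at 1642 and 1578 TPM (1.09, 1.04 to 1.14). Of the genes mutated in Diamond-Blackfan anaemia, a blood disorder of ribosome shortage, 19 were measured under a member's symbol. This group was not among the lists planned at first, so its counts are a description. Of the 19, 7 have divided reads, among them the partial row Rps19 at 0.924. Their median implied length in the control was 186 bases. By reads 15 were higher and by TPM 7, with 9 intervals above 1 and 0 below. Of all 82 members 59 and 34 were higher, with 31 intervals above and 4 below. Over all genes 50.5% and 51.7% were higher, with 12% of intervals above and 12.5% below.

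Lists of genes that act around the ribosome had medians near equality. Their interval counts are to be read against 12% above and 12.5% below 1 over all 12980 genes, 14.1% and 16.7% over whole-read genes with 1000 or more reads, and 19.8% and 29% at 5000 or more. Other TOP mRNAs, 16 in number, had a median read ratio of 1.01, with 4 intervals above 1 and 5 below. Tpt1, a TOP mRNA for a growth-related protein, was higher with Aβ at 16010 and 14599 reads (1.09, 1.07 to 1.12), and Hnrnpa1, a splicing factor, was lower at 21493 and 24088 reads (0.890, 0.874 to 0.906). Npm1 (0.956, 0.935 to 0.977) and Nap1l1 (0.943, 0.920 to 0.966), both histone chaperones, were lower as well.

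Initiation factors (35 genes) had a median read ratio of 1.01, with 8 intervals above 1 and 3 below. Among them the eIF2B subunit Eif2b3 was at 1.25 (1.11 to 1.40), Eif2b5 at 0.903 (0.833 to 0.979), the helicase Eif4a2 at 1.14 (1.10 to 1.18) and Eif4e2 at 1.17 (0.958 to 1.44). Elongation and termination factors (14) had a median of 0.998, with 4 above and 3 below. Eef1a2, on 42 and 65 reads, was at 0.644 (0.426 to 0.965), Eef1e1 at 1.15 (1.05 to 1.26), Gspt2 at 1.14 (0.929 to 1.39) and Eef2k, the kinase of elongation factor 2, at 0.923 (0.836 to 1.02).

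Ribosome assembly factors (66) had a median of 1.02, with 41 higher by reads and 8 intervals above 1 and 5 below. Riok2, a kinase of late small subunit maturation, was at 1.15 (1.04 to 1.27), Rrs1 at 1.12 (1.01 to 1.24), Lsg1 at 0.897 (0.808 to 0.996) and Ddx51 at 0.851 (0.736 to 0.984). RNA polymerase I genes (15) had a median of 0.996, with 0 above and 3 below. The 3 below, named after their values were seen, were Ubtf at 0.950 (0.905 to 0.997) and, with divided reads, Rrn3 at 0.914 (0.856 to 0.975) and Taf1d at 0.867 (0.793 to 0.947). The genes with the largest ratios among whole reads had intervals that included 1: Twistnb was at 1.12 (0.997 to 1.27), Polr1e at 1.10 (0.976 to 1.24), Taf1a at 1.08 (0.911 to 1.28) and Ttf1 at 0.921 (0.810 to 1.05). Chaperones and importers of ribosomal proteins (12) had a median of 0.974, with 1 above and 3 below. Grwd1, which escorts Rpl3, was at 1.14 (1.01 to 1.29), Heatr3 at 0.907 (0.825 to 0.997), Ipo9 at 0.954 (0.913 to 0.996) and Pdcd2l at 0.905 (0.741 to 1.10).

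Genes of mTORC1, Myc and TOP control (25) had a median read ratio of 1.01, with 2 above and 2 below. Mycl, a Myc family factor, was at 8.48 and 12.4 TPM (0.679, 0.577 to 0.797), and Maf1, a repressor of RNA polymerase III, at 0.864 (0.799 to 0.935). Larp1b was at 1.18 (1.03 to 1.36) and the mTOR inhibitor Deptor at 1.16 (0.938 to 1.44). Ribosome quality control genes (15) had a median of 1.03, with 2 above and 1 below. The ubiquitin ligase Rnf14 was at 1.18 (1.10 to 1.26), Gtpbp2 at 1.12 (0.956 to 1.31), Ascc3 at 1.09 (0.990 to 1.21) and Edf1 at 1.08 (0.987 to 1.19).

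Set beside these, 75 mitochondrial ribosomal protein genes had median ratios of 1.04 by reads and 1.02 by TPM, with 6 intervals above 1 and 3 below. The 37 proteasome subunits had 0.981 and 0.979, with 0 above and 4 below, and 17 cytosolic aminoacyl-tRNA synthetases had 1.03 and 1.04, with 6 above and 0 below. Over all 12980 genes 12% lay above and 12.5% below, and 14.1% and 16.7% over whole-read genes with 1000 or more reads. In each of these 3 groups both medians lay on the same side of equality, whereas those of the 82 cytosolic ribosomal proteins were 1.02 and 0.988. The 3 groups have longer transcripts, with median implied lengths in the control of 659, 1003 and 2380 bases, against 248 for the members. Other genes with whole reads and 100 to 250 bases also had medians on both sides, 1.04 by reads and 0.976 by TPM. The contrast is thus not particular to ribosomal proteins.

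**Figure D4:**
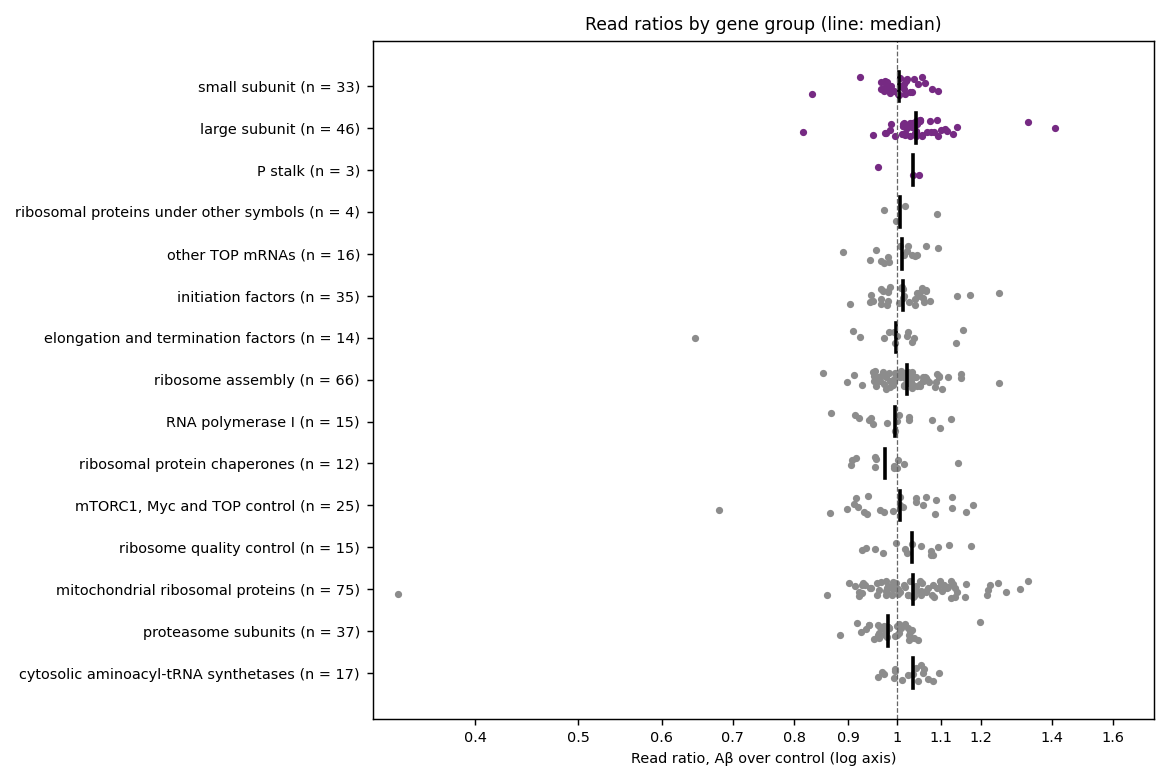
Read ratio of Aβ over control (log axis) for each gene at 1 TPM or more, by group, with the number of genes; purple points are members, grey points other genes and black lines medians. All medians lie between 0.974 and 1.04, and the large subunit line sits right of the small subunit line.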

How the data were processed

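RNA-seq libraries of 2 OPC cultures, 1 with Aβ and 1 with DMSO, were compared. The submitters' processing notes name Bowtie2 and the rat build Rnor_6.0; labels and headers name no counting tool or annotation. The authors' deposited table gives estimated counts, TPM and FPKM per gene. A further pair of deposited columns, named normalized read count by the authors, was taken as a score and left unused, since it holds the estimated counts rounded up in every row. Ratios are Aβ over control: log2((TPM + 1)/(TPM + 1)) for genes that reach 1 TPM, and reads per library total with exact Clopper-Pearson 95% intervals from reads rounded to whole numbers. Without molecular identifiers reads are not separate molecules, so intervals cover counting error only. Implied effective length is reads divided by FPKM and library total. Members and lists were chosen with earlier results of these data known. Named members were the 8 highest and 8 lowest read ratios at 100 or more reads, the 10 highest and lowest levels, the stalk, paralogues and leading divided members, of which not all are printed; in other lists, the 4 largest ratios with whole reads. RefSeq gene numbers (GRCr8) matched 80 of 83 members, 77 with the same symbol. Alternatives covered the unit, pseudocount, filter and scaling (median of ratios, upper quartile, and TMM of edgeR 4.0.16). The read ratio and its interval were tested on simulated counts, and the other steps were not. Python 3.11.15, SciPy 1.17.1 and pandas 2.3.3 were used. Some genes are counted in the totals but not reported here by name.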

Additional observations from a re-analysis of the deposited data

How the results depend on the processing

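With 1 library per group no replicate could be left out, and no paired analysis was possible because each group has 1 sample. The median log2 TPM ratio of members with whole reads, -0.0096, was 0.033 with reads scaled to the library total (CPM), -0.040 for divided reads alone and 0.017 for members of 500 bases or more of implied effective length, a split added after seeing the data. With CPM the small subunit median turned from -0.042 to 0.0073, the large subunit median went from 0.0097 to 0.053 and that of the P stalk from -0.0065 to 0.051. The members' share of reads was 3.81% (Aβ) and 3.72% (control) without the most abundant genes, and 3.51% and 3.43% among genes with whole reads. Among other filters and scalings of TPM, the members' median was -0.0063 at 10 TPM or more, -0.016 with the median of ratios and -0.026 with the upper quartile. Other pseudocounts left it at -0.0096. The 21 and 3 interval calls became 22 and 2 at most, with upper quartile scaling. In that scaling the interval of Rps2 included equality. Short transcripts, whose TPM ratio depends on the length term, limit any statement on direction.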

Other observations

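The table holds 24 further rows that the RefSeq table of GRCr8 now gives a ribosomal protein symbol, with 17331 reads with Aβ and 16998 in the control in all, and 9 of them have 100 or more reads. LOC103690996, now Rpl35al1, stood at 1252 (Aβ) and 1425 (control) TPM on divided reads, and no row carries the symbol Rpl35a. LOC100361079, now Rpl36l2, was at 1744 and 1811 TPM on 1066 and 991 reads, close to Rpl36 itself at 2097 and 2213 TPM. LOC100362027, now Rpl30l2, and Rpl30 had divided reads that summed to 3549 and 3326, a read ratio of 1.06 (1.01 to 1.12), and Rpl36al, a retrocopy of Rpl36a, was at 616 and 619 TPM beside Rpl36a at 610 and 605 TPM.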
